A study of Mus musculus with 298 samples.

Results

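The genes described here are known as targets of the transcription factor STAT5 or as feedback genes of cytokine signalling, and were followed in the blood of mice with inducible BCR-ABL. They are Cish, Socs1, Socs2, Socs3, Pim1, Osm and Id1. The list was made by name, with earlier results of these data known. The rows were found by matching Ensembl identifiers to GENCODE symbols. Of the 7 listed genes 6 were analysed, out of 14605 genes in the series, and Socs2 was not analysed here. The human BCR-ABL transcript, measured in the same libraries, was set beside them. RNA from whole blood of 20 mice was sequenced, with at most 1 library per mouse and week.

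All mice were C57BL/6, aged 6 to 8 weeks at the start, of both sexes, and carried tTA+/- and BCR-ABL+/-, so that the control mice have the transgene too. In this SCLtTA/BCR-ABL model the tetracycline-controlled activator is driven by Scl (Tal1) regulatory sequence, which is active in blood stem and progenitor cells, and tetracycline keeps BCR-ABL off. Control mice (3 mice, 57 libraries) drank tetracycline water, at 0.5 g/L, throughout. CML mice (6 mice, 94 libraries) had tetracycline withdrawn at week 0. TOTO mice (4 mice, 48 libraries) were without it for 6 weeks and back on it for 12 weeks. TKI mice (7 mice, 99 libraries) were without it and from week 6 were given the BCR-ABL kinase inhibitor nilotinib by daily gavage for 4 weeks (50 mg/kg). Whether the blood of week 6 was drawn before the first dose, and that of week 10 before the last, is not stated by the labels. The labels name 3 batches, constant within a mouse, without saying what step they mark. The TOTO mice were all in batch 2022_A.

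STAT5 is phosphorylated by JAK kinases at cytokine receptors, or by BCR-ABL itself, after which it dimerises and binds DNA. Among its best known targets are inhibitors of the same pathway, the CIS and SOCS proteins, so that raised messenger RNA of these genes is widely read as a sign of recent signalling. Some of the 7 genes also answer to other factors: Socs3 is a classical STAT3 target in cells exposed to interleukin 6 or G-CSF, and Id1 is a classical target of SMAD proteins downstream of BMP receptors. Myeloid cells of chronic myeloid leukaemia are known for active STAT5.

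The promoters are shown first, since STAT target genes are known by the motif that STAT dimers bind. The window from 250 bases before to 50 bases after each RefSeq transcription start (GRCm38.p6) was searched for TTCNNNGAA, the palindromic core bound by STAT dimers. Because the motif is a palindrome, a match on either strand is the same match. A promoter entry was found for Cish, Socs1, Socs3 and Pim1. Of 32851 promoters, 8.3% held at least 1 match and 0.457% at least 2. The Cish promoter held 2 and the Socs3 promoter 1, while Socs1 and Pim1 held 0. The stretches of 30 bases that hold the matches are shown 5′ to 3′ on the gene's strand, with the matches in capitals.
Cish (chr9:107296654-107296683, plus strand): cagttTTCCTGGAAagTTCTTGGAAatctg
Socs3 (chr11:117969501-117969530, minus strand): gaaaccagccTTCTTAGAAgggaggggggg
In Cish the matches begin 0 and 11 bases from the annotated start, and in Socs3 the match begins 154 bases before it (position -154). These are matches of letters only, and no binding was measured.

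The deposited values are TPM, transcript abundances that add up to a fixed sum per library and are scaled for gene length, so that levels can be compared between genes. Pim1 was the most abundant of the 6, with a mean of 51.0 TPM over all libraries, followed by Socs3 (22.7), Osm (6.92), Id1 (4.70), Cish (1.12) and Socs1 (0.873). Highest values reached 161 TPM for Pim1, 123 for Socs3, 39.6 for Id1, 39.2 for Osm, 10.5 for Cish and 5.92 for Socs1. Tests were run over the 10519 genes with a mean of at least 1 TPM. Socs1 is below that level, which leaves 5 tested members, and its values are given without a main test. Cish passed the filter only through mice taken off tetracycline, since its highest control library was at 0.870 TPM. Counts out of 5 thus include a member admitted by the groups where it was high. On GRCm39 the members lie at chr9:107173225-107179983 (Cish, ENSMUSG00000032578.8), chr16:10600104-10603875 (Socs1, ENSMUSG00000038037.6) and chr11:117856905-117860898 (Socs3, ENSMUSG00000053113.4). Pim1 (ENSMUSG00000024014.9) lies at chr17:29709581-29715086, Osm (ENSMUSG00000058755.4) at chr11:4186420-4191026 and Id1 (ENSMUSG00000042745.10) at chr2:152566218-152579544. Each value is for the whole gene. Noncoding genes on the opposite strand overlap all of them except Osm. The libraries keep strand per the labels' protocols, but the labels do not say whether the counting used it.

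Changes are in log2(TPM + 1), which understates the change of genes near 1 TPM such as Cish, and are given ± SE. Each mouse gave 1 change between 2 weeks, tested across all genes with limma, and an adjusted p (Benjamini-Hochberg) under 0.05 was taken as passing. Where the libraries of 2 weeks are said not to overlap, the share of all genes that did likewise is not given. Such statements describe levels and do not set the members apart from other genes. TPM are shares of a library, and haemoglobin transcripts took from 0.331 to 74.8% of them (median 42.6%). Every change was therefore also computed on values rescaled per library so that the typical gene keeps its level, called rescaled here. From 2552 to 13256 genes per library reached 1 TPM, and sequencing depth is unknown. In blood, fewer cells of a type and less RNA per cell cannot be told apart. The labels give mononuclear cells as the tissue, yet all 21 mature neutrophil markers were measured, and their summed level at week 0 ran from 359 to 17010 TPM. Some libraries stand apart. The mouse labelled CML 487 had the transgene at 0 in 16 of 19 libraries, with at most 0.409 TPM. In the week 17 library of control mouse 490, with 2552 genes at 1 TPM, 5 of the 6 members were at 0 and Pim1 was at 37.9 TPM. No test uses that library.

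**Figure D1:**
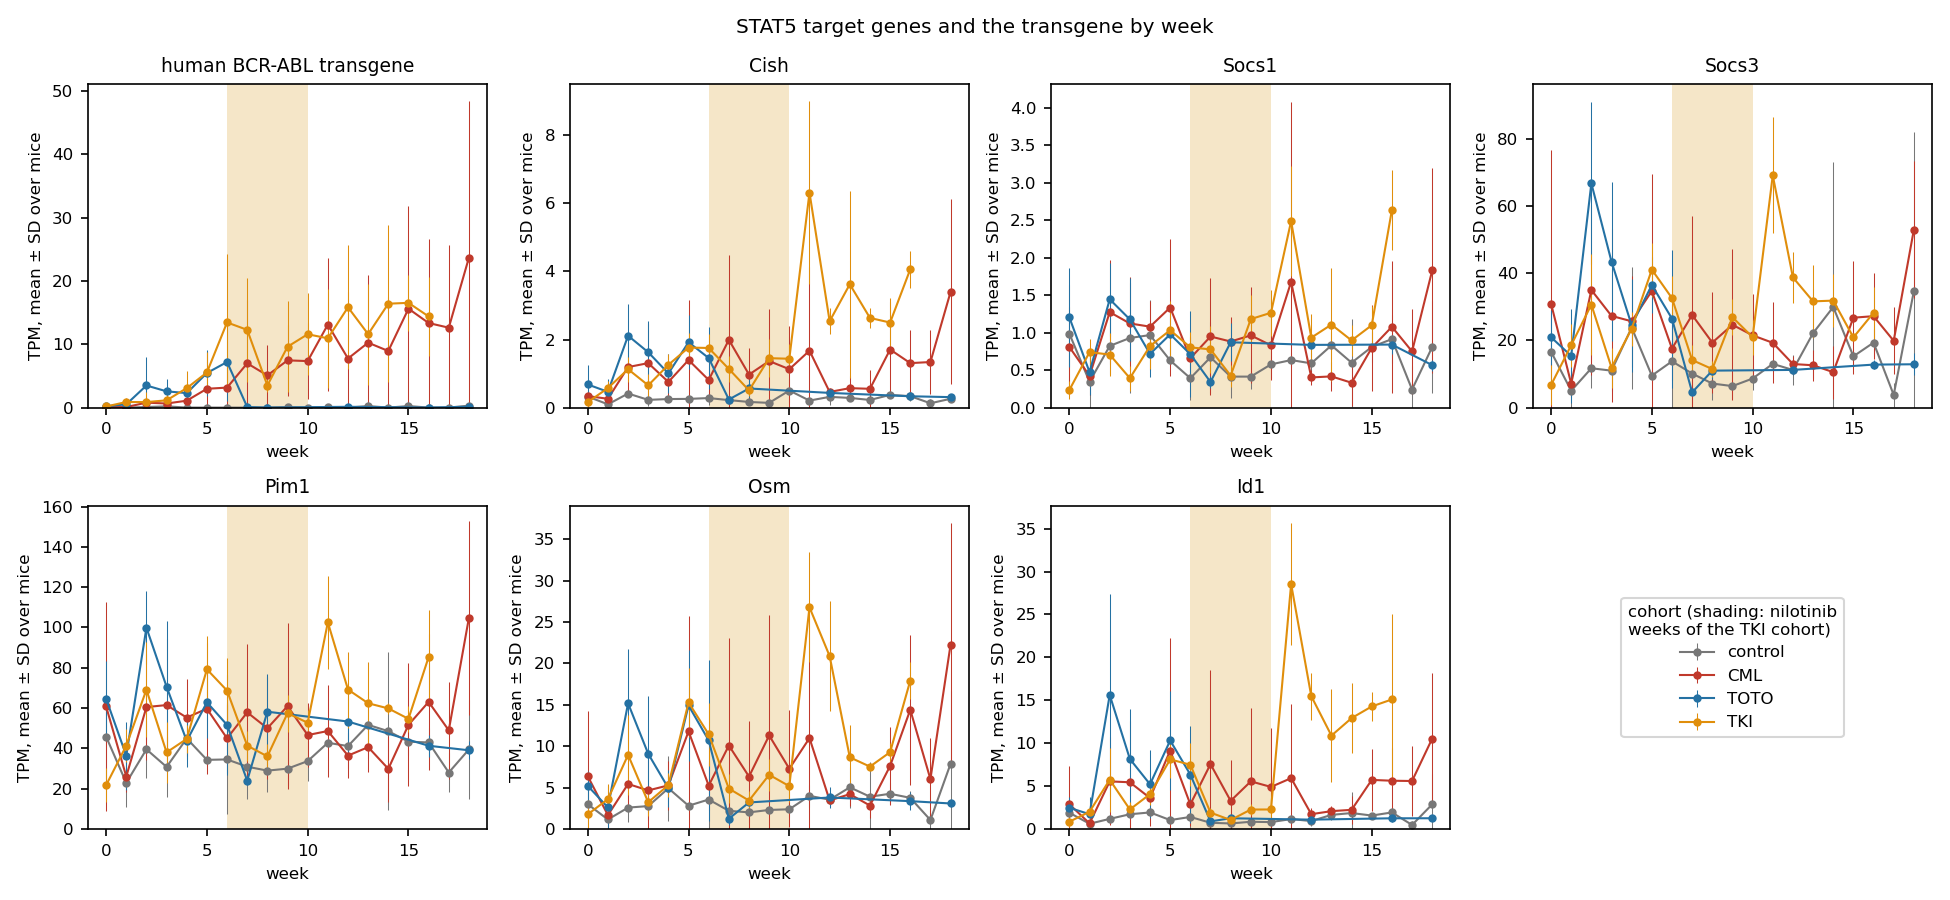
Level of human BCR-ABL and of the 6 members in TPM (vertical axes, linear) by week (horizontal axis), as mean ± SD over the mice of each cohort, with the nilotinib weeks 6 to 10 shaded and SD bars cut at 0. In TKI mice all 6 members had their lowest deposited mean under nilotinib at week 8, and all but Socs1 their highest of all weeks at week 11. The values shown are not rescaled, and the all-gene median log2 change from week 6 to week 8 was -0.41 in these mice.

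Means were ranked across 15 states of the study (week 0, then cohorts at weeks 6, 7, 8, 10, 11, 12, 18 and the last week). As deposited, all 6 members had their highest mean in TKI mice at week 11 and their lowest in TOTO mice at week 7. For Id1, which encodes a helix-loop-helix protein that binds other transcription factors and keeps them off DNA, these means were 28.5 ± 7.11 TPM (SD, n = 6) and 0.898 ± 0.225 (n = 4). For Osm, which encodes oncostatin M, a cytokine of the interleukin 6 family, they were 26.8 ± 6.65 and 1.25 ± 0.738 TPM. For Socs3, an inhibitor of JAK kinases at receptors of the interleukin 6 and G-CSF type, they were 69.0 ± 17.2 and 4.52 ± 0.744 TPM. Pim1, a serine and threonine kinase that supports survival and growth, stood at 103 ± 23.1 and 24 ± 2.12 TPM. Cish, whose product competes with STAT5 for docking sites on receptors, stood at 6.32 ± 2.69 and 0.238 ± 0.0963 TPM. Socs1, a direct inhibitor of JAK kinases, stood at 2.49 ± 0.739 and 0.341 ± 0.0820 TPM. The order depends on the scale. Rescaled, Id1 in TOTO mice ran from 1.11 to 4.70 at week 7 and from 0.591 to 0.761 at week 8. Rescaled Pim1 ran from 34.8 to 94.5 in TOTO mice at week 7 and from 55.7 to 74.2 in TKI mice at week 11.

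Between the highest and lowest deposited means, most neighbours in the order lay closer together than the larger of their SDs. The exceptions for Id1 were at the top: TKI week 11 stood above TKI week 12 (15.5 ± 2.75 TPM) by more than either SD. In Osm and Cish, TKI week 12 stood above TKI week 6 by more than either SD. In Osm TOTO week 18 (3.09 ± 0.378 TPM) stood above TOTO week 7, and in Socs1 TKI week 10 (1.26 ± 0.303 TPM) above TKI week 12. In Socs3 TOTO week 8 (11.0 ± 2.34 TPM) stood above TOTO week 7 as deposited. Rescaled, this turned, with Socs3 from 7.54 to 13.2 at week 7 and from 5.64 to 6.93 at week 8. Outside these states, Socs1 in 3 TKI mice at week 16 reached 2.63 ± 0.532 TPM. The transgene had another order, with its highest mean in CML mice at their last week (20.5 ± 17.6 TPM, n = 6).

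The first comparison asked what 6 weeks without tetracycline changed, in 17 mice of the CML, TOTO and TKI cohorts. The transgene rose by 2.49 ± 0.28 (limma, adjusted p = 1.44e-08), in 16 of 17 mice. Among the inhibitors, Cish stood at 0.344 ± 0.347 TPM (SD) at week 0 and 1.35 ± 0.72 at week 6, and rose by 0.77 ± 0.19 (adjusted p = 0.0041, 15 of 17 mice). Socs3 rose by 1.06 ± 0.38 (adjusted p = 0.0432), from 18.6 to 25.8 TPM, in 12 of 17 mice. Id1 rose by 1.21 ± 0.30 (adjusted p = 0.00405), from 1.95 to 5.59 TPM, in 15 of 17 mice, and Osm by 1.16 ± 0.34 (adjusted p = 0.0138), from 4.22 to 9.08 TPM, in 13 of 17. Pim1 changed by 0.53 ± 0.33 and did not pass (adjusted p = 0.238), with means of 45.6 and 56.3 TPM. Socs1 had means of 0.664 and 0.73 TPM.

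Thus 4 of 5 tested members were called higher, against 4.21% of all genes tested. Since the list was chosen with earlier results of these data known, this count and the later ones describe the members. They are not a test of the list. The median change was 1.06 over the 5 members and -0.34 over all genes. After rescaling all 5 were called, Pim1 included (0.88), but so were 34.4% of all genes. Of all calls 79.5% were lower as deposited and 52.8% after rescaling. With a term for batch the changes were 0.71 for Cish, 1.04 for Id1, 1.11 for Osm and 1.04 for Socs3, and none of the 5 passed (adjusted p = 0.0528, 0.0613, 0.0801 and 0.135). The call of Socs3 was lost in 11 of 17 fits that left out a mouse (adjusted p up to 0.0829). Without the mouse labelled CML 487 the same 4 members passed, with Socs3 at 1.25 (adjusted p = 0.019). Within the batches Id1 changed by 0.56 in the 2 mice of 2021_E, by 1.47 in the 10 of 2022_A and by 0.95 in the 5 of 2022_B, and Cish by 0.48, 0.85 and 0.72. Mature neutrophil markers rose over the same weeks (14 of 21 called, median 1.19), as did secondary granule genes (15 of 17, median 2.50). Their part in the members' change was not tested.

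The week 0 libraries themselves were spread widely. At week 0 Socs3 ran from 3.79 to 123 TPM in CML mice and from 1.65 to 17.2 TPM in TKI mice, and Id1 from 0.229 to 11.8 and from 0.260 to 1.53 TPM. As deposited, the cohorts therefore overlapped before tetracycline was withdrawn, with the CML group holding the highest values. The spread depends on the scale. Socs3 in CML mouse 487 at week 0 was 26.1 TPM as deposited and 7.38 rescaled. The summed level of 11 JAK and STAT genes at week 0 ran from 55.9 to 713 TPM as deposited and from 141 to 216 rescaled. At week 2 the TOTO mice had higher means than at week 6 or any later week for Id1 (15.6 ± 11.8 TPM, SD, n = 4), Socs3 (66.7 ± 24.1), Pim1 (99.9 ± 18.0), Osm (15.2 ± 6.61) and Cish (2.11 ± 0.933), when the transgene stood at 3.49 ± 4.49 TPM. In control mice at week 2 the means were 1.19 TPM for Id1, 11.7 for Socs3, 39.6 for Pim1, 2.60 for Osm and 0.413 for Cish. This peak was noticed in the deposited weekly values and was not tested.

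With the change of the 3 control mice subtracted, no member passed as deposited (0 of 5 called, 0.019% of all genes). The unadjusted limma p was under 0.05 for Id1 alone. By exact permutation of mouse labels the unadjusted p was 0.048 for Cish and 0.0605 for Id1. The differences were 0.83 ± 0.49 for Cish, 1.83 ± 0.99 for Socs3, 1.09 ± 0.85 for Pim1, 1.29 ± 0.88 for Osm and 1.58 ± 0.77 for Id1, with adjusted p of 1.0 in limma for each. At week 6 the 3 control mice stood at 0.108, 0.21 and 0.52 TPM for Cish, at 3.26, 3.37 and 34.6 for Socs3 and at 0.448, 0.601 and 3.19 for Id1. In each of these genes the highest control library lay inside the range of the Tet-off mice. After rescaling, Cish (0.72, adjusted p = 0.0497) and Id1 (1.40, adjusted p = 0.0401) were called higher in limma, against 8.17% of all genes. All calls as deposited were higher, while 49.6% of the rescaled calls were lower.

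Late untreated disease was read from the last library of each CML mouse, at weeks 7 to 18. Id1 stood at 28.3 TPM in mouse 477, 18.7 in 480, 21.4 in 484, 3.58 in 487, 9.39 in 541 and 3.37 in 542. Cish stood at 6.84, 5.27, 6.05, 0.279, 4.65 and 0.731 TPM in the same order, and the transgene at 26.3, 49.7, 21.5, 0.409, 20.9 and 4.34 TPM. Mice 487 and 542 were the lowest in Id1, Cish, Socs1 and the transgene, and the other 4 lay above the control mice, whose Cish at week 18 was at most 0.376 TPM and Id1 at most 6.94 TPM. Osm ran from 13.0 to 39.2 TPM, Pim1 from 27.5 to 151, Socs3 from 11.6 to 80.6 and Socs1 from 0.316 to 5.92.

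**Figure D2:**
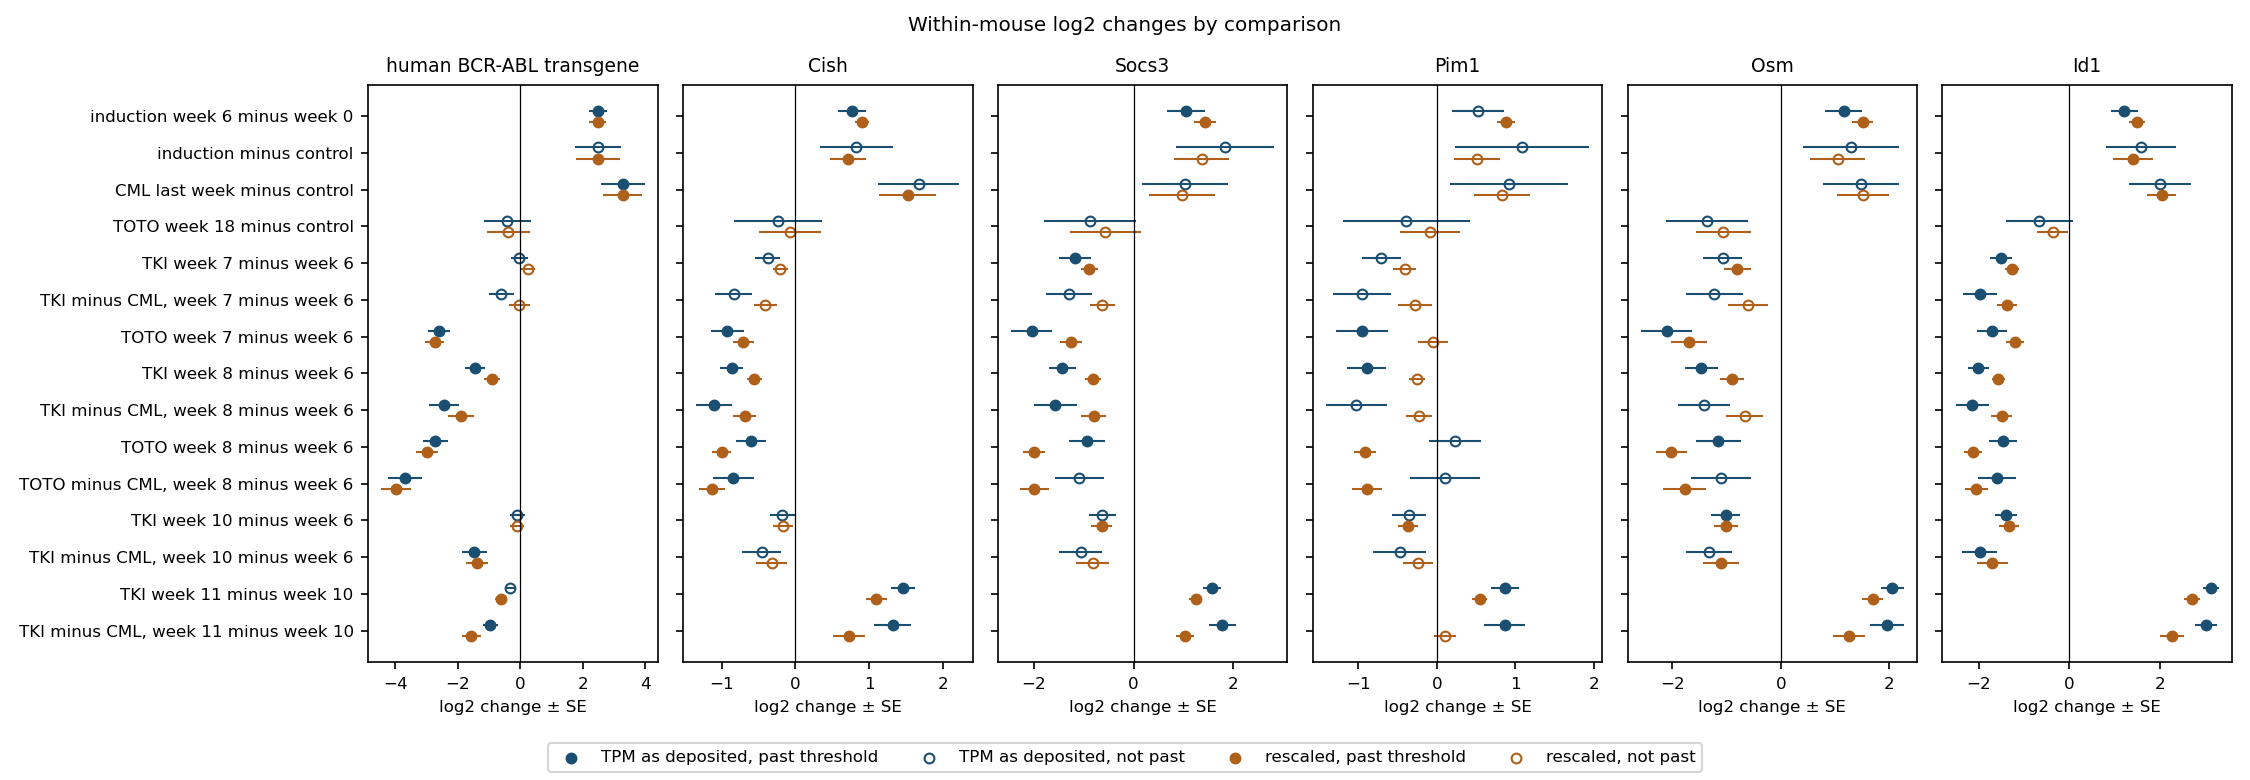
Log2 change ± SE (horizontal axes) of human BCR-ABL and the 5 tested members in 15 comparisons (rows), for TPM as deposited and after rescaling, with filled points where a value passed the threshold. Id1 lies farthest from 0 among the members in the TKI comparisons, at -1.51 at week 7, -2.0 at week 8 and 3.13 at week 11 against week 10.

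Minus the change of the control mice from week 0 to week 18, the CML change was 1.67 ± 0.55 for Cish (adjusted p = 0.808) and 2.01 ± 0.69 for Id1 (adjusted p = 0.927). For Osm it was 1.48 ± 0.70, for Socs3 1.03 ± 0.86 and for Pim1 0.92 ± 0.75 (adjusted p = 1.0 in limma for each). None of the 5 was called, as for 0.0856% of all genes. At an unadjusted limma p under 0.05 were Cish, Osm and Id1. By exact permutation of mouse labels none of these was under 0.05, with p of 0.0952, 0.131 and 0.0714. On rescaled values the exact permutation p was 0.0238, 0.0238 and 0.0119 in the same order. Without the mouse labelled CML 487 none passed either, with Cish at 2.05 (adjusted p = 0.0783) and Id1 at 2.33 (adjusted p = 0.212). After rescaling Cish (1.52, adjusted p = 0.0328) and Id1 (2.04, adjusted p = 0.00406) were called, with 2.51% of all genes. Of the calls, 0% were lower as deposited and 51.4% after rescaling. Secondary granule genes were higher in the same comparison in 4 of 17, with a median of 3.15, and their part in these values was not tested.

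In TOTO mice at week 18, after 12 weeks back on tetracycline, 0 of 5 members differed from the control change in limma (0.0% of all genes as deposited and 0.0% after rescaling). At an unadjusted p under 0.05 the members' count was 0 as well. The differences ran from -1.36 ± 0.75 for Osm to -0.24 ± 0.60 for Cish. The levels at week 18 were 12.9 ± 3.31 TPM (SD, n = 4) for Socs3, 3.09 ± 0.378 for Osm and 1.26 ± 0.236 for Id1, against 34.6 ± 47.2, 7.89 ± 8.73 and 2.88 ± 3.51 in the 3 control mice. The 1 highest control library reached 89.2 TPM for Socs3, 18.0 for Osm and 6.94 for Id1.

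In the first week of nilotinib (week 7 against week 6, 7 TKI mice) Id1 and Socs3 fell, and the change of the transgene did not pass. For the transgene the lowest, median and highest levels were 4.58, 11.1 and 36.0 TPM at week 6 and 4.88, 10.0 and 30.2 at week 7, a change of -0.03 ± 0.27 (limma, adjusted p = 0.969). Id1 stood at 4.82, 7.54 and 11.0 TPM at week 6 and at 1.42, 1.69 and 2.76 at week 7. The highest week 7 library was thus below the lowest of week 6, and Id1 fell by 1.51 ± 0.25 on the log2 scale (-1.51, adjusted p = 0.00196) in 7 of 7 mice. By the two-sided exact sign-flip test, run on each gene by itself, p was 0.0156 for Id1, the smallest that 7 mice allow. Socs3, Osm and Pim1 had the same sign-flip p, while it was 0.094 for Cish and 0.797 for Socs1.

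Socs3 stood at 21.6, 33.2 and 42.2 TPM (lowest, median and highest) at week 6 and at 9.62, 13.6 and 21.2 at week 7. These groups did not overlap either, and how many of all genes separated in this way is not given. Socs3 fell by 1.18 ± 0.31 (limma change -1.18, adjusted p = 0.041). This call was lost when any of mice 502, 507, 508, 511, 512 and 514 was left out (adjusted p from 0.081 to 0.195). Osm stood at 6.9, 11.3 and 17.4 TPM and then at 3.09, 4.18 and 7.18, lower in 7 of 7 mice, with a change of -1.07 ± 0.36 that did not pass (adjusted p = 0.118; rescaled -0.80, adjusted p = 0.0359). Pim1 was also lower in 7 of 7 mice without passing (-0.70 ± 0.25, adjusted p = 0.148), with medians of 69.8 and 40.6 TPM. Cish had medians of 1.71 and 1.28 TPM (-0.38 ± 0.17, adjusted p = 0.315), and Socs1 of 0.844 and 0.722 TPM.

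In this first week 2 of 5 members were called lower, where 2.22% of all genes were, with medians of -1.07 over the members and -0.20 over all genes. After rescaling 3 of 5 were called, where 8.85% of all genes were. Of all calls 96.7% were lower as deposited and 54.6% after rescaling. Rescaled, Id1 changed by -1.26 and Socs3 by -0.89. Within batch 2022_A (4 mice) Id1 changed by -1.84 and within 2022_B (3 mice) by -1.07. Mature neutrophil markers fell in the same week (12 of 21 called, median -1.32), and their summed level had a lowest, median and highest value of 4581, 15590 and 22400 TPM at week 6 and of 3494, 4901 and 6941 at week 7. The part of these cells in the members' fall was not tested.

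The 6 CML mice over the same week served as the untreated comparison. Id1 differed by -1.97 ± 0.37 between TKI and CML mice (adjusted p = 0.00926), and after rescaling by -1.37 (adjusted p = 0.00741). Id1 was the only member called, with 1.59% of all genes lower as deposited and 3.67% after rescaling. Of all calls 98.8% were lower as deposited and 72.4% after rescaling. The differences of the other members were -0.84 ± 0.25 for Cish (adjusted p = 0.083), -1.29 ± 0.46 for Socs3 (0.14), -0.95 ± 0.37 for Pim1 (0.17) and -1.23 ± 0.53 for Osm (0.206, limma). Without the mouse labelled CML 487 the Id1 difference was -2.08 (limma, adjusted p = 0.00721). Within batch 2022_A it was -3.33 and within 2022_B -1.10.

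**Figure D3:**
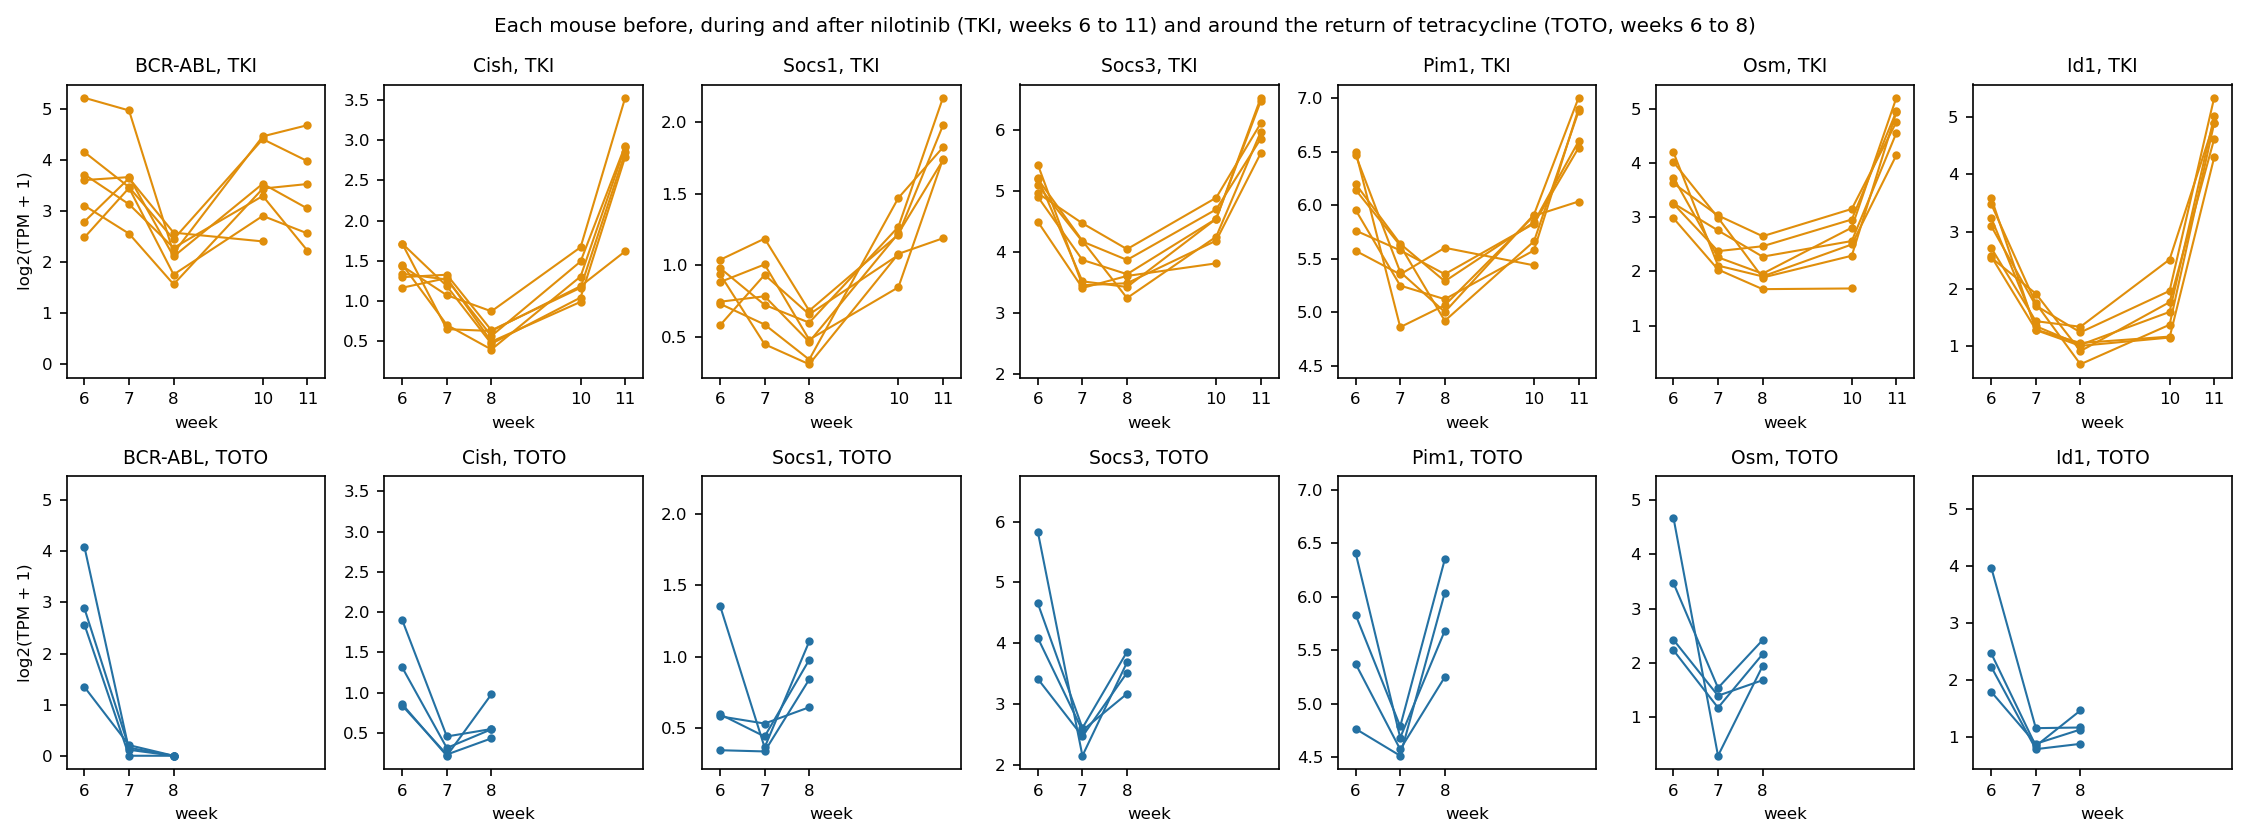
Level of human BCR-ABL and the members in each mouse in log2(TPM + 1) (vertical axes), for 7 TKI mice at weeks 6, 7, 8, 10 and 11 and 4 TOTO mice at weeks 6, 7 and 8 (1 line per mouse). The Id1 lines of all 6 TKI mice sampled at week 11 rise from week 10, while the transgene lines do not rise together.

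In the second week of nilotinib the transgene fell as well. From week 6 to week 8 it changed by -1.45 ± 0.31 (limma, adjusted p = 0.00096), to a lowest, median and highest level of 1.96, 3.52 and 4.96 TPM. Id1 reached 0.593, 1.02 and 1.51 TPM (-2.0 ± 0.24, adjusted p = 2.07e-06). Cish reached 0.319, 0.482 and 0.833 TPM (-0.86 ± 0.16, adjusted p = 0.000184). For both genes every week 8 library was below every week 6 library, and the share of all genes that did so is not given. Socs3 reached 8.47, 11.2 and 15.5 TPM (-1.43 ± 0.28), Osm 2.19, 2.88 and 5.27 TPM (-1.46 ± 0.31) and Pim1 29.3, 33.9 and 47.6 TPM (-0.89 ± 0.25, limma adjusted p = 0.00886, lower in 6 of 7 mice). Socs1 stood at 0.239, 0.396 and 0.605 TPM, against 0.496, 0.844 and 1.05 at week 6.

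All 5 tested members were called lower at week 8, at a background of 36.0% of all genes. After rescaling 4 of 5 were, at a background of 19.5%, and Pim1 was not (-0.25, adjusted p = 0.0616). Of all calls 98.9% were lower as deposited and 41.5% after rescaling. Summed mature neutrophil markers were then at 1614, 2078 and 3216 TPM (lowest, median and highest), with 20 of 21 called lower, and 12 of 16 tested immediate early genes were also lower (median -1.06). What part these had in the members' fall was not tested. Against the change of 5 CML mice, Cish (-1.11 ± 0.24, adjusted p = 0.00505), Socs3 (-1.58 ± 0.43, adjusted p = 0.0203) and Id1 (-2.14 ± 0.36, adjusted p = 0.00139) were called lower in limma. That is 3 of 5 as deposited, where 10.3% of all genes were lower, and 3 of 5 after rescaling, where 10.7% were (99.4% and 48.5% of calls lower). The call of Socs3 was lost without CML mouse 484 or 487 or TKI mouse 507 (adjusted p up to 0.102), while without CML 487 Cish differed by -1.02 and Id1 by -2.10, both called.

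Shutting off the transgene gave the comparison with TOTO mice, in which tetracycline returned after week 6. From week 6 to 7 the transgene went from 1.54 to 0.155 TPM in mouse 476, from 6.37 to 0.115 in 482, from 16.0 to 0.0845 in 483 and from 4.91 to 0 in 545. At week 8 all 4 libraries were at 0. Id1 went from 2.47 to 0.844 TPM in 476, from 3.70 to 0.727 in 482, from 4.53 to 0.795 in 483 and from 14.7 to 1.23 in 545. Socs3 went from 9.69 to 4.56 TPM, from 16.0 to 4.95, from 24.2 to 5.11 and from 55.9 to 3.46 in the same mice, and Cish from 0.811 to 0.162, from 0.789 to 0.174, from 1.48 to 0.243 and from 2.74 to 0.372. In all 3 genes the 4 week 7 libraries lay below the 4 of week 6 as deposited. Rescaled, Cish overlapped, at 1.42 in mouse 545 at week 7 and 1.24 in mouse 482 at week 6. How many of all genes separated as deposited is not given, and 35.9% of all genes were called lower.

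All 5 tested members fell at week 7, in 4 of 4 mice: Id1 by 1.70 ± 0.33 (limma change -1.70, adjusted p = 0.000502), Osm by 2.11 ± 0.48, Socs3 by 2.04 ± 0.41, Cish by 0.92 ± 0.23 and Pim1 by 0.95 ± 0.33 (adjusted p = 0.0263). The background was 35.9% of all genes lower as deposited, and 23.0% after rescaling, where 4 of 5 members were called. Rescaled Pim1 changed by -0.05 (adjusted p = 0.851), and as deposited its call was lost without mouse 483 or 545 (adjusted p up to 0.207). Of all calls 99.5% were lower as deposited and 51.3% after rescaling. The exact sign-flip test on 4 mice cannot go below p = 0.125. Over the same week 20 of 21 mature neutrophil markers fell (median -2.82), and their summed level went from 3927, 7032 and 19930 TPM (lowest, median and highest) to 207, 597.9 and 872.3. Their part in the members' change was not tested.

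By week 8 Pim1 parted from the other members on the deposited scale. It stood at 64.8, 37.1, 80.6 and 50.4 TPM in mice 476, 482, 483 and 545, from 26.2, 40.5, 56.0 and 84.0 at week 6, a change of 0.24 ± 0.33 (limma, adjusted p = 0.521). The other 4 tested members were called lower than at week 6 (Id1 -1.45 ± 0.31, Osm -1.15 ± 0.41, Socs3 -0.94 ± 0.37 and Cish -0.60 ± 0.21), where 4.48% of all genes were. In mouse 476, however, Cish went up from 0.811 to 0.973 TPM and Socs3 from 9.69 to 10.5 TPM. The exact sign-flip p was 0.25 for both of these genes. Over these weeks 19 of 21 mature neutrophil markers (median -1.74) and 15 of 17 secondary granule genes (median -2.18) were lower, and 19 of 19 B cell genes were higher (median 3.06), whose part in the members' change was not tested. The all-gene median rose by 0.95 at this week, and 6.03% of calls were lower. Of the 10519 genes tested, 7334 were called higher as deposited, so the B cell count by itself does not set these genes apart. On rescaled values 3824 genes were called higher, the 19 B cell genes among them (median 1.93). After rescaling, Pim1 turned to -0.91, all 5 members were called lower, with 31.2% of all genes, and 46.2% of calls were lower. The calls of Socs3, Cish and Osm rested on single mice: Cish and Socs3 were lost without mouse 545 or 483, Socs3 also without 482, and Osm without 545.

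Against the change of 5 CML mice at week 8, Cish (-0.84 ± 0.28, adjusted p = 0.0158) and Id1 (-1.59 ± 0.42, adjusted p = 0.00503) were called lower in limma in TOTO mice. That is 2 of 5, where 3.44% of all genes were lower. After rescaling it was 5 of 5, where 26.8% were (6.58% of calls lower as deposited, 47.2% rescaled). Cish lost the call without TOTO mouse 483 or 545 (adjusted p up to 0.0548), and without CML 487 it differed by -0.76 and Id1 by -1.55, both called. This comparison and that of TKI with CML mice share the CML mice. Set side by side at week 8, Id1 differed from CML by -2.14 under nilotinib and by -1.59 after shut-off, and Cish by -1.11 and by -0.84, while the transgene differed by -2.44 and by -3.71. The order of the members turned with the scale: rescaled, Id1 differed by -1.49 and by -2.05 and Cish by -0.69 and by -1.13. The all-gene medians were -0.53 and 0.84 as deposited. The TKI and TOTO values were not tested against each other.

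At week 10, the last nilotinib week, the transgene was back near its week 6 level, with a lowest, median and highest value of 4.29, 9.82 and 21.0 TPM (-0.09 ± 0.26, limma adjusted p = 0.899). Id1 remained lower at 1.2, 2.01 and 4.69 TPM (-1.39 ± 0.24, limma adjusted p = 0.0021). As deposited, its highest week 10 library was just below its lowest of week 6 (4.82 TPM). Rescaled, the weeks overlapped, and Id1 in mouse 511 went up from 4.28 at week 6 to 5.53 at week 10. Osm, at 2.21, 4.9 and 7.89 TPM, was lower too (-1.02 ± 0.27, adjusted p = 0.02), a call lost without mouse 502, 507, 508 or 514 (adjusted p up to 0.085). Socs3 (-0.63 ± 0.28, adjusted p = 0.187), Pim1 (-0.35 ± 0.22, 0.388) and Cish (-0.18 ± 0.17, 0.608, limma) did not pass. Socs1 had a median of 1.32 TPM, above its week 6 median of 0.844.

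Thus 2 of 5 members were called lower at week 10 as deposited, where 4.84% of all genes were. After rescaling 4 of 5 were, where 17.0% were (61.0% and 46.6% of calls lower). Mature neutrophil markers were also lower, in 19 of 21 (median -1.45), and their part in the members' values was not tested. Against 5 CML mice over weeks 6 to 10, the transgene differed by -1.48 ± 0.40 (limma, adjusted p = 0.0337) and Id1 by -1.97 ± 0.38 (adjusted p = 0.00626). Id1 was the only member called as deposited, where 3.38% of all genes were lower, and without CML 487 it differed by -2.10. Osm (-1.10, adjusted p = 0.0321) joined it after rescaling, where 11.5% were (99.2% of calls lower as deposited and 54.9% rescaled).

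In the week after nilotinib ended all 6 members were higher in every mouse sampled. Between weeks 10 and 11 (6 TKI mice) Id1 went from 1.20 to 18.7 TPM in mouse 502, from 1.58 to 28.8 in 507, from 2.01 to 31.4 in 508, from 4.69 to 29.1 in 511, from 2.89 to 39.6 in 512 and from 2.39 to 23.6 in 513. No week 11 library was near the week 10 range, and the rise was 3.13 ± 0.17 (limma, adjusted p = 4.76e-12; rescaled 2.70). The transgene in the same mice went from 10.6 to 7.27 TPM, from 21.0 to 24.6, from 20.2 to 14.7, from 8.79 to 3.67, from 9.82 to 10.5 and from 6.47 to 4.90. It was lower in 4 of the 6 mice, with a change of -0.34 ± 0.17 (limma, adjusted p = 0.111), which after rescaling was -0.61 (adjusted p = 0.0207).

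Osm reached a lowest, median and highest level of 16.7, 27.9 and 35.8 TPM (2.05 ± 0.21, limma adjusted p = 1e-07), and Socs3 48.2, 64.9 and 91.3 TPM (1.58 ± 0.18, adjusted p = 3.89e-07). Cish reached 2.07, 6.37 and 10.5 TPM (1.46 ± 0.17, adjusted p = 4.03e-07). Pim1 reached 64.6, 106 and 127 TPM (0.87 ± 0.18, adjusted p = 0.000511) and Socs1 1.28, 2.44 and 3.5 TPM. For Id1, Osm, Socs3 and Pim1 all 6 libraries of week 11 lay above all 7 of week 10, and Cish was higher in every mouse. The share of all genes that separated in this way is not given, and 30.2% of all genes were called higher. In Cish the value of mouse 502 at week 11, 2.07 TPM, lay inside the week 10 range, which reached 2.18 TPM. The exact sign-flip p was 0.0312 for each of the 6 members, the smallest that 6 mice allow. Without the filter on low levels, Socs1 changed by 0.59 ± 0.18 (limma, adjusted p = 0.0203).

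All 5 tested members were called higher, at a background of 30.2% of all genes. After rescaling all 5 were as well, at a background of 25.4% (24% and 51.4% of calls lower). Medians were 1.58 over the members and 0.23 over all genes. In these mice 21 of 21 mature neutrophil markers rose (median 2.32), and their summed level reached 18090, 31870 and 51770 TPM (lowest, median and highest) from 1607, 3398 and 7306 at week 10. Secondary granule genes rose in 15 of 17 (median 2.68) and immediate early genes in 12 of 16 (median 1.32), while 13 of 13 erythroid genes fell (median -2.77). The part of these shifts in the members' rise was not tested. Within batch 2022_A (4 mice) the Id1 change was 3.38 and within 2022_B (2 mice) 2.63, and the Cish change 1.31 and 1.77.

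A comparison with 5 CML mice over the same week was added after the values had been seen. Id1 differed by 3.01 ± 0.25 (limma, adjusted p = 1.99e-08), Osm by 1.95 ± 0.32, Socs3 by 1.78 ± 0.27, Cish by 1.32 ± 0.25 and Pim1 by 0.86 ± 0.26 (adjusted p = 0.0124). The transgene differed in the opposite direction, by -0.96 ± 0.25 (adjusted p = 0.00449). Without CML 487 the Id1 difference was 3.00 and all 5 members were called. All 5 members were called higher as deposited, with 42.6% of all genes. After rescaling 4 of 5 were, with 19.7%, and Pim1 was not (0.11, adjusted p = 0.582), where 6.92% and 46.1% of calls were lower. Within batch 2022_A (4 against 1 mouse) the rescaled difference was 2.12 for Id1, 1.17 for Socs3, 0.29 for Osm, -0.18 for Cish and -0.17 for Pim1, and for Socs1, which was not tested across genes, -1.58.

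The levels then fell back from the week 11 peak. At week 12 (4 mice) the means were 15.5 TPM for Id1, 20.9 for Osm, 38.7 for Socs3, 69.2 for Pim1 and 2.54 for Cish, and the transgene stood at 15.8 ± 9.77 TPM. At week 16 (3 mice) Id1 stood at 8.25, 10.6 and 26.5 TPM, the transgene at 14.4 ± 6.30 TPM, and Cish at 4.06 ± 0.539 TPM. All 3 mice were then above the Id1 range of the TKI mice at weeks 7 to 10.

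Whether a mouse with more transgene had more of the members was examined at week 6 over 17 Tet-off mice on log2(TPM + 1). Pearson's r was 0.793 for Cish (100000 permutations, adjusted over 6 genes p = 0.00108; Spearman's rho 0.765, adjusted p = 0.00366). It was 0.736 for Socs3 (rho 0.645), 0.712 for Pim1 (rho 0.642), 0.748 for Osm (rho 0.699) and 0.710 for Id1 (rho 0.662), all past the threshold (largest adjusted permutation p = 0.00186 for r and 0.00797 for rho). Socs1 had r = 0.304 (adjusted permutation p = 0.236; rho 0.213, adjusted p = 0.411). Without the 2 mice farthest from the median transgene level r was 0.697 for Cish, 0.630 for Socs3, 0.641 for Pim1, 0.635 for Osm and 0.595 for Id1.

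Within the batch that had enough mice the relation did not pass the threshold. In batch 2022_A (10 mice) r was 0.642 for Cish, 0.662 for Pim1, 0.596 for Osm, 0.585 for Socs3 and 0.478 for Id1, and none passed after adjustment (smallest adjusted permutation p = 0.114). Without the 2 farthest of these 10 mice r was 0.200 for Cish and 0.0296 for Id1. Rescaled values gave r of 0.625 for Cish, 0.572 for Socs3, 0.623 for Osm and 0.550 for Id1 over the 17 mice, past the threshold, but none by rho (smallest adjusted permutation p = 0.309), and within the batch r was below 0 for all 6. Batches 2021_E and 2022_B held 2 and 5 of these mice, too few for a value.

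**Figure D4:**
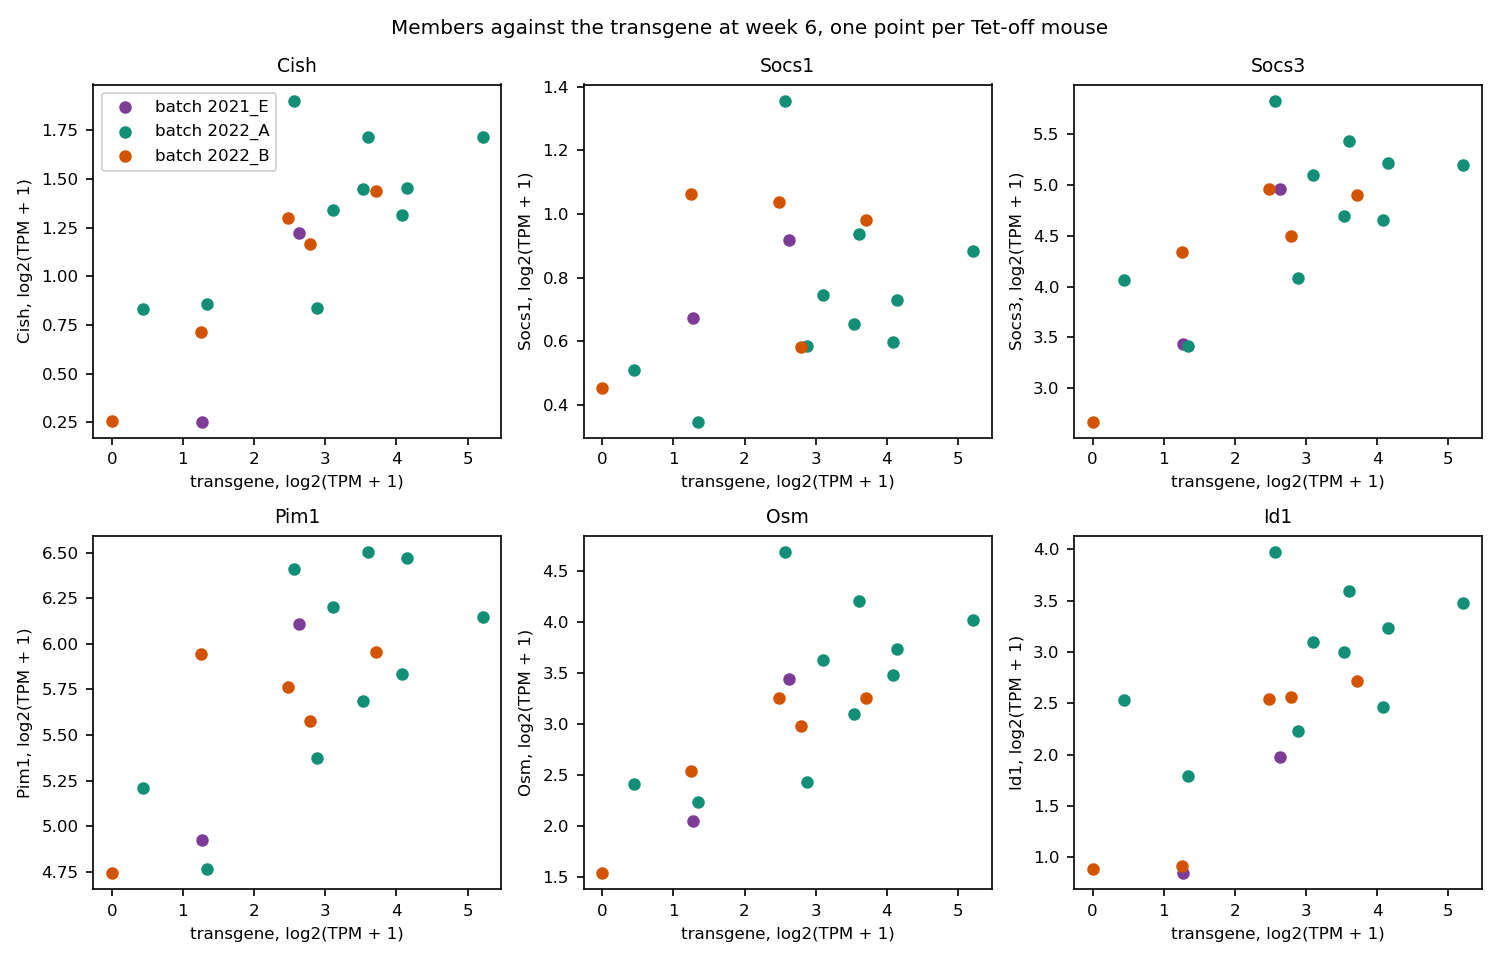
Level of each member (vertical axes) against human BCR-ABL (horizontal axes) at week 6, both in log2(TPM + 1), 1 point per Tet-off mouse (17 mice), coloured by batch. Cish shows the closest relation over all mice (r = 0.793) and Socs1 the loosest (r = 0.304).

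Over time within each mouse, the rank correlation of a member with the transgene is a description of weekly libraries that share a mouse and are not independent. The mouse labelled CML 487 was left out of the medians, since its transgene is at 0 in 16 of 19 libraries. For Cish the median rho was 0.664 in the other 5 CML mice, 0.595 in 7 TKI mice and 0.874 in 4 TOTO mice, above 0 in each of these 16 mice, while in CML 487 it was -0.314. For Id1 it was 0.772, 0.331 and 0.808, for Osm 0.730, 0.366 and 0.730, for Pim1 0.635, 0.284 and 0.790, and for Socs3 0.707, 0.330 and 0.721. In these 5 genes the TKI cohort had the lowest median. Socs1 had 0.319, 0.568 and 0.555, with the lowest median in CML mice. The difference between cohorts was not tested.

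The members were also like one another across all libraries, on rescaled values centred on each mouse. The closest pairs were Osm with Id1 (r = 0.837), Cish with Id1 (0.832) and Socs3 with Osm (0.813), and the loosest was Socs1 with Pim1 (0.361). Among genes with a mean of at least 5 TPM, the 3 most like Id1 were Crispld2 (r = 0.941), Ampd3 (0.939) and 1600014C10Rik (0.932). Those most like Osm were Nfil3 (0.908), Trib1 (0.906) and Trem1 (0.903), and those most like Socs3 were Pirb (0.901), Emilin2 (0.898) and Hp (0.896). Cish was most like Ckap4 (0.863), Anxa11 (0.851) and Itgb2l (0.846). Pim1 was most like Prdx5 (0.772), Capn1 (0.772) and Atp6v0c (0.771), and Socs1 like Arl4c (0.685), Rflnb (0.663) and Cited2 (0.655). Without the week 17 library of control mouse 490, Socs3 was most like Csf2rb (0.917), which encodes the common beta chain of the receptors for interleukin 3, interleukin 5 and GM-CSF. Tgfbi and Tarm1 followed Csf2rb for Socs3, in place of the genes named above. The genes nearest to Pim1 then became Pnpla2, Grina and Cdkn2d. For Cish, Sft2d2 and Nherf1 replaced Anxa11 and Itgb2l, and for Id1 Pygl replaced 1600014C10Rik. Those of Osm and Socs1 were the same 3 each. Several of the nearest genes thus depend on that 1 library. These correlations share libraries and carry no p.

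The messenger RNA of STAT5 itself was read from Stat5a and Stat5b. From week 6 to week 7 of nilotinib Stat5a changed by -0.30 ± 0.21 (limma, adjusted p = 0.536) and Stat5b by -0.29 ± 0.26 (0.618), and of 11 JAK and STAT genes 0 passed (0 after rescaling, median -0.29 as deposited). At week 8 Stat5a (-0.68, adjusted p = 0.0104) and Stat5b (-0.63, adjusted p = 0.0369) were lower in limma, and in all 7 of the 11 were, among them Stat6 (-1.23) and Stat3 (-1.01), where 36.0% of all genes were. After rescaling 3 of the 11 were lower and 1 higher, with Stat5a at -0.20 (adjusted p = 0.00985) and Stat5b at -0.04 (adjusted p = 0.61). From week 10 to 11 Stat6 (1.12) and Stat3 (0.91) rose, 2 of 11, where 30.2% of all genes did. Stat5a (0.18, limma adjusted p = 0.439) and Stat5b (0.38, limma adjusted p = 0.0749) did not pass. In TOTO mice at week 8 Stat5a rose by 0.99 ± 0.26 (adjusted p = 0.00157) and Stat5b by 0.90 ± 0.31 (0.0118, limma), in the week when the all-gene median rose by 0.95, and neither passed after rescaling (0.06 and -0.15).

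Of 16 tested receptors that signal through STAT5, 4 fell in the first nilotinib week (median -0.25), where 2.22% of all genes did, and none rose. After rescaling 5 fell, where 8.85% of all genes did, and 2 rose. Among the 4 were Csf3r, the G-CSF receptor (-1.57), Csf2rb (-1.22) and Csf2rb2 (-0.99), a second common beta chain of the mouse. At week 8 these 3 stood at -2.17, -1.84 and -1.59 among 8 of 16 that were lower, with 36.0% of all genes. After rescaling 5 were lower and 4 higher, these 3 among the lower. From week 10 to 11 Csf3r rose by 2.08, Csf2rb by 1.90 and Csf2rb2 by 1.74, among 7 of 16 that rose, while 4 fell (7 and 7 after rescaling). Of all genes 30.2% rose as deposited and 25.4% after rescaling. Csf3r is also a gene of mature neutrophils, whose markers moved in the same direction in each of these comparisons.

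Of 18 other inhibitors of the pathway none passed in the first nilotinib week as deposited (median -0.32), and 2 were higher and 4 lower after rescaling. At week 8, 9 of 18 were lower and none higher, among them the phosphatases Dusp6 (-1.66) and Ptpn6 (-1.30) and the signalling inhibitor Spry2 (-0.68), with 36.0% of all genes lower. After rescaling 5 were lower and 4 higher. From week 10 to 11, 8 rose and 2 fell (7 and 4 after rescaling), with Dusp1 at 2.23, Ptpn6 at 1.01 and Spry2 at 0.69. The background for a rise was 30.2% of all genes as deposited and 25.4% rescaled. Of 15 other STAT5 targets (median -0.23), 1 passed in the first nilotinib week, Ccnd1, which encodes cyclin D1, and it rose (0.53). At week 8, 4 of 15 were lower, among them the survival gene Mcl1 (-1.33), the repressor Bcl6 (-1.05) and the protease Gzmb (-0.98), with Ccnd1 higher (0.54). That share is below the 36.0% of all genes that were lower, and after rescaling 3 were lower and 4 higher. From week 10 to 11, 4 rose, Mcl1 (1.47) and Gadd45g (0.70) among them, and 3 fell (3 and 5 after rescaling), with Ccnd1 at -1.02. For a rise, both shares are below those of all genes (30.2% as deposited and 25.4% rescaled). Ccnd1 thus had the opposite sign to the 5 members in all 3 comparisons.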

How the data were processed

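Whole blood RNA of 20 mice was sequenced after ribosomal RNA depletion in 4 cohorts. The authors deposited TPM per gene (14605 genes, 14537 matched to GENCODE, release 39). STAR, Salmon and GRCm39 are named in the submitters' processing notes, and the versions are not given in the sources used here. TPM sums ran from 989100 to 999879. TPM keep no depth, so no counting error is given.

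Changes of log2(TPM + 1) within a mouse (the same animal at both weeks, which is the replicate block) were fitted with limma 3.58.1 in R 4.3.3 (lmFit with cohort terms, eBayes with trend) over 10519 genes with a mean of at least 1 TPM, and adjusted by Benjamini-Hochberg (threshold 0.05). Rescaled values were divided by median-ratio size factors over 4339 genes. Exact sign-flip and label permutation tests and correlations were run in Python 3.11.15 (numpy 2.4.6, pandas 2.3.3, scipy 1.17.1), and figures drawn with matplotlib 3.10.9. The fit was tested on simulated data. Alternatives were a pseudocount of 0.1, no filter, no replicate block, a batch term, rescaling, each mouse left out, week 1 as the start and week 9 as the end.

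The members and lists were chosen with earlier results of these data known. Named besides the members and the transgene were the 3 genes most like each member and up to 3 genes per pathway list with the smallest p, past the threshold; Stat5a and Stat5b were added after their values were seen. The sequences come from a RefSeq promoter table of GRCm38.p6, and no coordinate was converted between builds.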

Additional observations from a re-analysis of the deposited data

Results flagged for a closer look

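Of 72 groups of mice examined for a sample far from the others, 2 were flagged, and chance alone flags about 1 in 20. The Socs1 change from week 6 to week 7 was -0.99 in TOTO mouse 545, far below the other 3 of the 4 mice, which ran from -0.155 to -0.00852. The Cish change from week 10 to week 11 was 0.433 in TKI mouse 502, below the other 5 of the 6 mice, which ran from 1.44 to 1.86. No explanation was tested for either value.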

How the results depend on the processing

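Counts are of the 5 tested members past the threshold. With no replicate block the count became 0 for TKI week 7 (from 2), TKI against CML at weeks 7 (from 1), 8 (from 3) and 10 (from 1) and TKI week 10 (from 2), while the sizes of the changes stayed as they were. A batch term gave 0 for induction (from 4), 1 for TOTO against CML at week 8 (from 2) and 2 for TKI against CML at week 10 (from 1). Rescaling gave 2 for induction minus control and for the CML last week minus control (each from 0), 5 for TOTO against CML at week 8 (from 2), 4 for TKI week 10 (from 2) and 2 for TKI against CML at week 10 (from 1). Without the filter on low values the counts were 1 for TKI week 7, 1 for TKI week 10 and 0 for TKI against CML at week 10. A pseudocount of 0.1 gave 1 for TKI week 7, and week 9 as the end gave 1 for TKI week 10. Of the 6 genes related to the transgene at week 6, 5 passed over all mice and 0 within batch 2022_A. The cause was not tested in any of these.

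Directions turned for Pim1 in TOTO mice at week 8 after rescaling (-0.91, and -0.89 against CML mice), and in the difference from CML mice with a batch term (-0.00908). At week 18 of TOTO mice a batch term turned Pim1 (0.23) and Cish (0.11). The transgene change at week 7 of TKI mice was 0.25 rescaled and 0.072 with a batch term. Leaving out a mouse turned that change (range -0.192 to 0.0833, above 0 without 507, 508, 511 or 512) and the transgene at week 10 (range -0.174 to 0.0219, above 0 without 507). It also turned Pim1 in TOTO mice at week 8 (range -0.11 to 0.556, below 0 without 476) and against CML mice (range -0.24 to 0.426, below 0 without TOTO 476, CML 541 or CML 542).

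With each mouse left out the counts ran from 3 to 4 for induction, 1 to 2 for TKI week 7 (1 without 502, 507, 508, 511, 512 or 514), 1 to 2 for TKI against CML at weeks 7 and 10 (2 without CML 542), and 2 to 5 for TKI against CML at week 8 (highest without CML 542 or TKI 514). They ran from 4 to 5 for TOTO week 7, 1 to 4 for TOTO week 8 (lowest without 483 or 545), 1 to 4 for TOTO against CML (moved without CML 542, TOTO 483 or TOTO 545) and 1 to 2 for TKI week 10 (1 without 502, 507, 508 or 514). The count was 5 throughout for TKI week 8, TKI week 11 and its comparison with CML mice, and 0 throughout for the 3 comparisons with control mice. Of 1130 member changes recomputed under an alternative, 1121 kept their direction and 1037 their side of the threshold. Depth is unknown and 3 control mice limit every comparison with them.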
